A study of Mus musculus with 2 samples.

Results

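B cells were 270 of the 2727 barcodes kept from EGFP-positive cells sorted from a Met-1 transplant and a PyMT breast tumour of the mouse. A barcode was kept with at least 500 UMIs (unique molecular identifiers, 1 per captured transcript) and at most 10% of them in mitochondrial genes. It was counted as a B cell with at least 3 UMIs of Cd79a and Cd79b together, at most 2 of the macrophage genes C1qa, C1qb, C1qc and Csf1r together, and at most 1 of the T cell genes Cd3d and Cd3e together. The Met-1 transplant held 239 B cells among 2135 kept barcodes, or 11.2% (exact Clopper-Pearson 95% interval 9.89 to 12.6). The PyMT tumour held 31 among 592, or 5.24% (3.59 to 7.35). The members were chosen by the counts of these 8 genes, so their values and every comparison of B cells with other barcodes of a library are descriptions.

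Both libraries came from inAd-Chaser-mTmG mice on the C57BL/6 strain, which carry Adiponectin-rtTA, TRE-Cre and the Rosa26 mT/mG reporter. All cells start with membrane tdTomato, and doxycycline switches cells with an active Adiponectin promoter, meant to be adipocytes, and their descendants to membrane EGFP; cells positive for EGFP and negative for tdTomato were sorted. One group is the Met-1 transplant, as the sample label names it, although the series text names EO771 as the implanted line. The other is the tumour of mice that also carry PyMT, a transgene whose promoter the labels do not give. The age of the mice, the timing of doxycycline and the number of mice are not stated in the labels. There was 1 library per group, so differences between the tumours have no replicate check and were not tested. Intervals cover counting error only, except those of list medians, which come from the ranks of the genes.

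B lymphocytes are made in the bone marrow, where rearranged heavy and light chain genes are joined into a receptor that is held at the surface with the signalling chains Cd79a and Cd79b. Newly made cells carry IgM, and mature naive cells add IgD by alternative splicing of the same primary transcript before antigen and T cell help lead some of them to switch to IgG, IgA or IgE. Each B cell normally keeps 1 kind of light chain, kappa or lambda. Naive B cells recirculate through blood, lymph nodes and spleen, and can collect in inflamed tissue and tumours.

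The 2 libraries differed in depth. The B cells of the Met-1 transplant had a median of 3506 UMIs (957 to 21974) and 1315 genes, against 2105 UMIs (1214 to 3359) and 839 genes in the PyMT tumour. Summed UMIs were 909494 and 68714, so 3 UMIs correspond to 3.30 CPM (UMIs of a gene per 1000000 UMIs of the summed cells) in Met-1 B cells and 43.7 CPM in PyMT B cells. The libraries shared 0 barcodes. At the edge of the rule, 7 Met-1 and 3 PyMT members held exactly 3 Cd79 UMIs, and 5 Met-1 and 0 PyMT barcodes with 2 would otherwise have entered. The Cd79 sum had a median of 12 (3 to 35) in Met-1 members and 6 (3 to 18) in PyMT members. On the macrophage side, 138, 85 and 16 Met-1 members had 0, 1 and 2 UMIs, 7 barcodes just outside had 3, and the remaining 100 that met the other limits had 18 or more. In the PyMT tumour 19 members had 0 and 12 had 1, and the 11 barcodes outside had 22 or more. The barcodes beyond this limit, with macrophage and B cell RNA together, numbered 107 and 11.

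The defining markers of B cells were high in the members. Igkc, the kappa constant gene (chr6:70726435-70726966, plus strand, mm10), was at 6786 CPM in the B cells of the Met-1 transplant and 162 CPM in its other barcodes. In the PyMT tumour it was at 8426 CPM in B cells and 53.1 CPM in the others. Ms4a1, which encodes CD20 (chr19:11249675-11266241, minus strand), stood at 670 against 18.7 CPM in the Met-1 library and at 961 against 3.30 CPM in the PyMT library. Ly6d, a surface protein of the B lineage (chr15:74762056-74763620, minus strand), stood at 1720 against 43.5 CPM and at 1543 against 24.3 CPM. Ighd (chr12:113406604-113416324, minus strand), the IgD constant gene, stood at 1053 against 30.8 CPM in Met-1 and 349 against 8.25 CPM in PyMT. Cd79a (chr7:24897381-24902197, plus strand), used by the rule, was at 2658 CPM in Met-1 B cells and 2328 CPM in PyMT B cells. Each of these markers was thus at least 30 times as high in B cells as elsewhere in both libraries. Cd79b, also used by the rule, was just below this in Met-1, at 863 against 29.1 CPM (ratio 29.7). It was at 888 against 11.8 CPM in PyMT.

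Genes over the level minimum in both libraries numbered 655, and 70 of them (10.7%) were at least 2-fold higher in B cells of both, while 122 (18.6%) were at least 2-fold lower; the members were chosen within this contrast, so nothing is read from these shares. The level minimum was 200 CPM and 10 UMIs on at least 1 side, and folds for calls were taken after adding 50 CPM. The highest by fold in the Met-1 library, beside the genes above, were Fcmr, the Fc receptor for IgM (726 against 20.3 CPM), Bank1, a B cell scaffold protein (556 against 16.9 CPM), Iglc2, a lambda constant gene (947 against 24.1 CPM), and Ighm, the IgM constant gene (2039 against 144 CPM). Ralgps2 and the class II chaperone gene H2-DMb2 completed the 12 with Cd79a and Cd79b. The lowest were C1qb, C1qa, C1qc, Lyz2, Apoe and Rgs1, of which the C1q genes were limited by the rule. None of the genes tested in both libraries was 2-fold higher in one and 2-fold lower in the other.

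**Figure D1:**
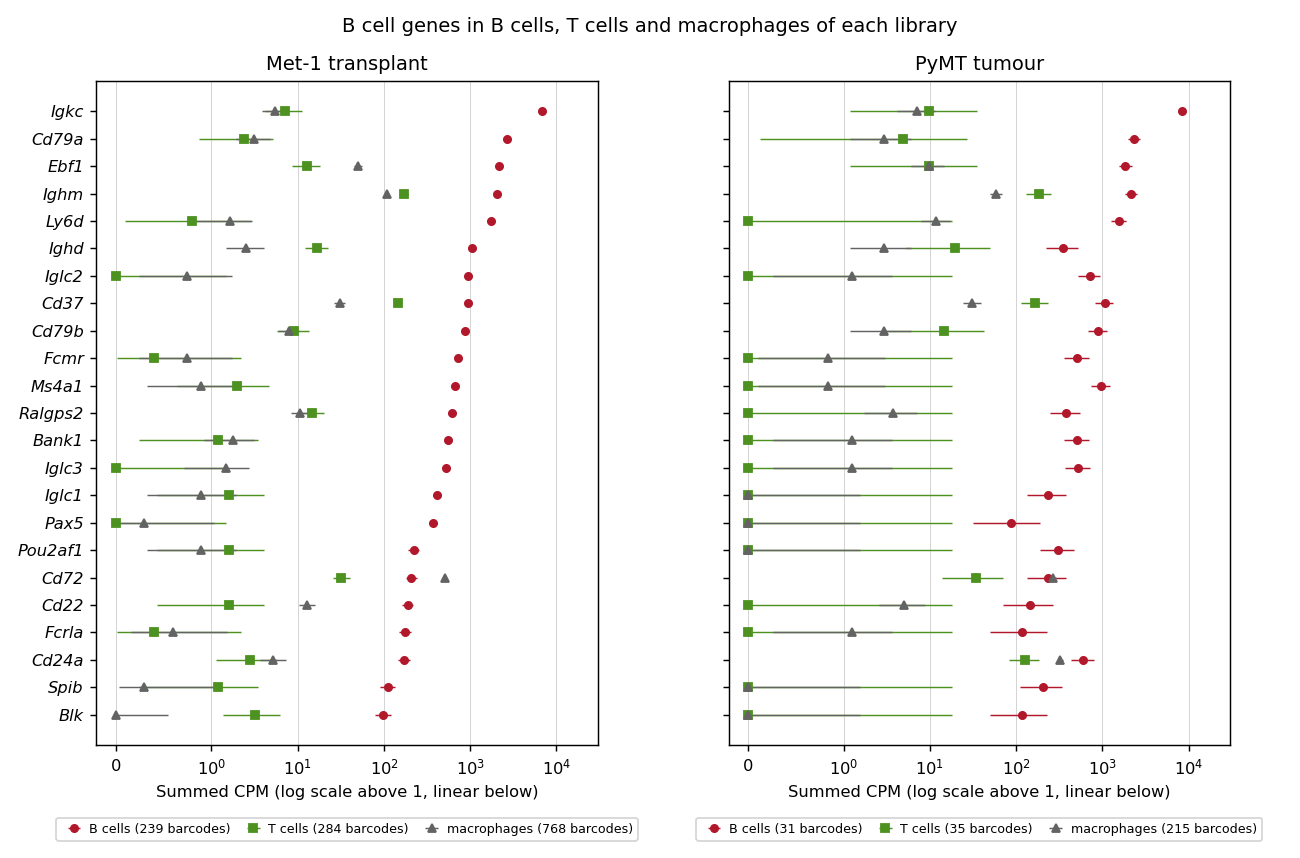
Summed CPM of Ighm, the light chain constant genes Iglc1, Iglc2 and Iglc3, and B cell identity genes, among them Igkc and Ighd, in B cells, T cells and macrophages of each library, on an axis that is logarithmic above 1 CPM and linear below; bars are exact Poisson 95% intervals. B cells lie to the right of both other classes for every gene shown but Cd72, which has 208 CPM in B cells and 515 CPM in macrophages of the Met-1 library, and 233 and 269 CPM in the PyMT library.

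Regulators of B cell identity stood far above their level in other cells. Pax5, the transcription factor that holds cells in the B lineage (chr4:44524757-44710487, minus strand), was at 371 CPM in Met-1 B cells against 0 CPM in T cells and 0.298 CPM in macrophages of the same library. Pou2af1, the coactivator of immunoglobulin transcription, was at 220 CPM in Met-1 B cells against 4.93 CPM in all other barcodes. Ebf1, an early B lineage factor that stromal cells also express, was at 2152 against 268 CPM.

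The sequence before the start of 3 of these genes is shown because binding motifs of B lineage factors were looked for there. Each run is the 250 bases before the RefSeq start on GRCm38.p6, from 5′ to 3′ on the gene's strand, with a matched motif in capitals. The motifs were CCCNNGGG, a core bound by Ebf1, GAGGAA, the core bound by Spib and Spi1, and ATGCAAAT, the octamer bound by Pou2f2 with Pou2af1; both strands were searched. The windows are chr7:24897247-24897496 (plus) for Cd79a, where GAGGAA stands on the opposite strand, chr3:136326067-136326316 (minus) for Bank1, where CCCNNGGG was found, and chr1:130865527-130865776 (plus) for Fcmr, with GAGGAA on the opposite strand. The files' annotation starts Cd79a inside its window.
Cd79a: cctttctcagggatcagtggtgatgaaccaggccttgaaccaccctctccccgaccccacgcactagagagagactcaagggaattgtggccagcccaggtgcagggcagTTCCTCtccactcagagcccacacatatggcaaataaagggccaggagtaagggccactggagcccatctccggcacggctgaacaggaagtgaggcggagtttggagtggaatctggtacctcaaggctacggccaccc
Bank1: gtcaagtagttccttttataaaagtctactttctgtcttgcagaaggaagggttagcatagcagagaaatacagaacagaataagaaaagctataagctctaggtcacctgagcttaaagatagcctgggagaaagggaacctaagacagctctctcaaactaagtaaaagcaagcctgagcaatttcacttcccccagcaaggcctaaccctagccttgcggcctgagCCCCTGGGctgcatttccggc
Fcmr: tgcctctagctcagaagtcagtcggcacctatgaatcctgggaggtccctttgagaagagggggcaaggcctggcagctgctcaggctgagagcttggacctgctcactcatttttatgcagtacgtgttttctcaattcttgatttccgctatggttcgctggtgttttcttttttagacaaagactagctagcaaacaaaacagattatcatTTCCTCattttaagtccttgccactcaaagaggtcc

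Of the 70 genes higher in B cells of both libraries, 47 had a window, with 82 windows in all. CCCNNGGG was in 15.9% of them, in 15.8% of the 653 windows of genes tested and in 11.8% of all 32851 windows. GAGGAA was in 28.0%, 22.7% and 23.3% of these sets. ATGCAAAT was in 0 of the 82 windows, in 0.613% of the windows of tested genes and in 1.60% of all. A match is a description of the letters and not a binding site.

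By heavy chain, nearly all B cells were unswitched. Ighm and Ighd UMIs were found together in 215 of 239 Met-1 B cells (89.96%, 85.4 to 93.5) and in 15 of 31 PyMT B cells (48.4%, 30.2 to 66.9). Ighm (chr12:113418558-113422730, minus strand) was found without Ighd in 17 Met-1 cells (7.11%) and in 15 PyMT cells. Ighd alone was found in 5 Met-1 cells (2.09%) and 0 PyMT cells, and 1 PyMT cell held no heavy constant UMI. These shares depend on depth, since the PyMT cells were shallower. With each cell thinned to 1000 UMIs, the cells with both were 49.2% of 238 Met-1 cells (42.6 to 55.7) and 25.8% of 31 PyMT cells (11.9 to 44.6). Ighm alone then made up 29.8% of Met-1 and 61.3% of PyMT cells. The intervals of the share with both chains overlapped after thinning and did not before it, while those of Ighm alone did not overlap in either case.

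The balance of the 2 chains differed more plainly. Ighd was 34.1% (32.3 to 35.9) of Ighm and Ighd UMIs in Met-1 B cells, against 14.0% (9.15 to 20.05) in PyMT B cells. Ighm itself was at 2039 CPM in Met-1 B cells and 2154 CPM in PyMT B cells, while Ighd was at 1053 and 349 CPM, a ratio of 3.02 (exact conditional 95% interval 2.01 to 4.73). Per cell, Ighm had a median of 7 UMIs (highest 50) in Met-1 and 4 (highest 12) in PyMT, and Ighd a median of 3 (highest 16) and 0 (highest 4). Among cells with at least 3 UMIs of the pair, the Ighd share had a median of 33.3% in 229 Met-1 cells (quartiles 21.4 and 47.4) and 9.09% in 25 PyMT cells (quartiles 0 and 25). Ighd UMIs outnumbered Ighm UMIs in 40 Met-1 cells and 0 PyMT cells. The 2 libraries thus differed in Ighd, while Ighm was within 2-fold. With 1 library per tumour this is not read as a trait of the tumours, and the PyMT value rests on 24 Ighd UMIs in 15 cells. In the barcodes with macrophage and B cell RNA, the Ighd share was 29.2% in Met-1 and 13.3% in PyMT. The Ighm and Ighd rows are neighbours of 1 transcription unit, and the labels do not say how reads shared by their transcripts were divided.

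Immunoglobulin RNA was also counted in other classes. In the Met-1 library 59.2% of T cells (median 8004 UMIs) and 46.7% of macrophages (median 7510.5 UMIs) held an Ighm UMI, and 12.7% and 2.08% held an Ighd UMI. Thinned to 1000 UMIs, Ighm was found in 79.0% of Met-1 B cells against 14.8% of T cells. Ighd was then found in 60.1% of B cells against 2.82% of T cells. The chains were not in the same ratio in these classes, with 1854 Ighm and 6172 Igkc UMIs in Met-1 B cells, against 435 and 18 in Met-1 T cells and 721 and 37 in Met-1 macrophages. The source of the UMIs outside B cells was not tested.

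**Figure D2:**
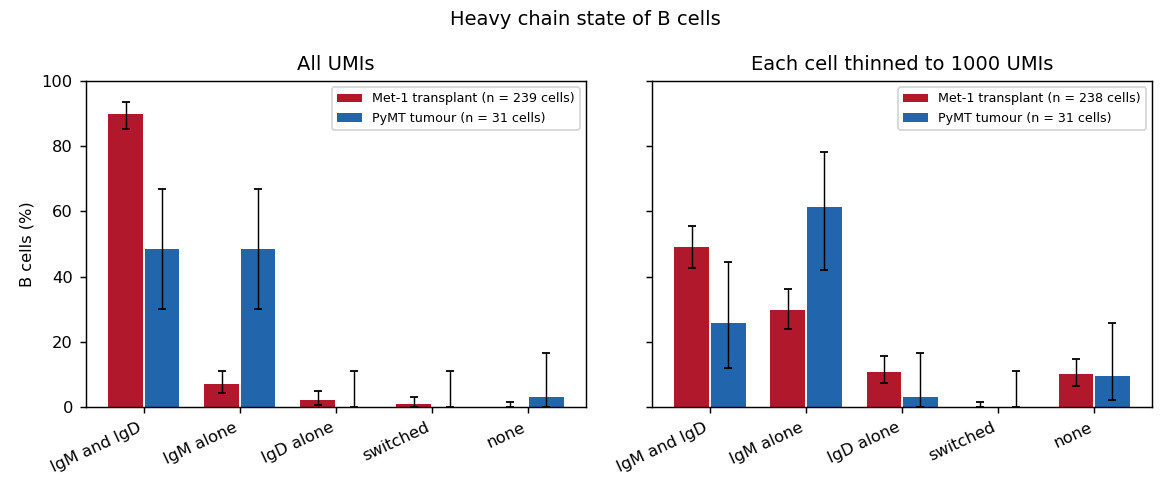
Heavy chain states of B cells in each library, as the percent of B cells, for whole cells and for cells thinned to 1000 UMIs, with exact Clopper-Pearson 95% intervals. Cells with Ighm and Ighd are 89.96% of Met-1 and 48.4% of PyMT cells at full depth, and 49.2% and 25.8% after thinning.

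Switched heavy chains were almost not seen in the B cells. Igha, the IgA constant gene (chr12:113254830-113260236, minus strand), had 2 UMIs, 1 in each of 2 Met-1 B cells (0.837%), and 0 UMIs in PyMT B cells. Ighg1, Ighg2b, Ighg2c, Ighg3 and Ighe had 0 UMIs in the B cells of both libraries. A count of 0 cells allows a share of cells with a UMI of up to 1.26% in Met-1 and 9.68% in PyMT B cells. This limit covers counting and not cells that express a gene without a captured UMI, which matters most at the depth of the PyMT cells. An Igha UMI was held by 21.8% of Met-1 T cells but by only 0.781% of Met-1 macrophages, so the share outside B cells depended on the class. The 2 B cells had 1 Igha UMI each beside Ighm and Ighd UMIs, and are not read as switched. Thinned to 1000 UMIs, Igha was found in 0 Met-1 B cells, in 4.23% of Met-1 T cells and in 0.134% of Met-1 macrophages. Barcodes of the Met-1 library outside the members held 299 Igha UMIs in 173 barcodes and 42 Ighg2b UMIs in 19 barcodes.

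Summed over the list, genes of mature follicular cells stood well above the other barcodes. The sum of the immature list did not, but it rests largely on Crip1 and does not settle this for the other immature genes. The mature follicular list summed to 7395 CPM in Met-1 B cells and 4904 CPM in PyMT B cells, against 1175 and 632 CPM in the other barcodes. The immature and transitional list summed to 1426 CPM in Met-1 B cells against 1586 CPM in PyMT B cells, and to 1378 and 1591 CPM in the other barcodes of these libraries. Crip1 gave 595 of the 1297 UMIs of this list in Met-1 B cells. It was at 654 CPM in Met-1 B cells against 1017 CPM in the other barcodes, and at 684 against 803 CPM in PyMT. The marginal zone list summed to 1196 and 2023 CPM against 872 and 755 CPM, and the plasma cell list to 703 and 1135 CPM against 415 and 865 CPM. These lists hold genes that other cells also express. Fcer2a, which encodes CD23, was found in 165 of 239 Met-1 B cells (69.0%, or 36.1% after thinning) and in 14 of 31 PyMT B cells (45.2%), and in 0 Met-1 T cells. Cr2, the complement receptor CD21, was found in 84 Met-1 B cells (35.1%) and 10 PyMT B cells (32.3%). The list of pro-B and pre-B cell genes had 30 UMIs in Met-1 B cells (33.0 CPM) and 1 UMI in PyMT B cells (14.6 CPM).

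Single genes that mark other stages were looked up after the lists' values were seen. Vpreb3, which is high in immature B cells, had 161 UMIs in 92 Met-1 B cells and 6 UMIs in 5 PyMT B cells, and 0 UMIs in Met-1 T cells. Cd93, a marker of transitional cells, had 5 UMIs in Met-1 B cells and 0 in PyMT B cells. It was found in 2.09% of Met-1 B cells and 3.52% of the deeper Met-1 T cells, or in 0.840% and 0.704% after thinning. The recombination gene Rag1 and the polymerase gene Dntt had 1 UMI each in Met-1. Cd5, a marker of B-1a cells, and Jchain, the joining chain of plasma cells, had 0 UMIs in the B cells of both libraries. Sdc1, a plasma cell surface marker, had 8 UMIs in Met-1 and 0 in PyMT. Mki67, a marker of dividing cells, had 0 UMIs in the B cells of both libraries, against 131 UMIs in Met-1 T cells, and Top2a had 4 in Met-1 B cells. The germinal centre and B-1 lists summed to 84.7 and 140 CPM in Met-1 B cells and to 102 and 131 CPM in PyMT B cells, with no member over the level minimum.

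Within the Met-1 library, cells with Ighm alone were compared with cells with both chains. Fcer2a was at 279 CPM (163 to 447) in the 17 cells with Ighm alone and at 436 CPM (392 to 483) in the 215 with both. Cd24a, high in immature B cells, was at 279 CPM (163 to 447) and 160 CPM (134 to 189). Vpreb3 was at 213 CPM (114 to 365) and 176 CPM (148 to 207). The intervals of these 3 genes overlapped between the groups, and median depth was 3191 and 3550 UMIs.

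The light chain genes gave a less simple picture, and the lambda constant genes need their sequences to be read. Iglc1, Iglc2 and Iglc3 lie on mouse chromosome 16, and the last 120 coding bases before the stop codon of each are shown to compare the genes. They are read from the GRCm38 gene annotation (minus strand), at chr16:19061755-19061874 for Iglc1, chr16:19198539-19198658 for Iglc2 and chr16:19065368-19065487 for Iglc3. Capitals mark the bases that differ from Iglc2.
Iglc1: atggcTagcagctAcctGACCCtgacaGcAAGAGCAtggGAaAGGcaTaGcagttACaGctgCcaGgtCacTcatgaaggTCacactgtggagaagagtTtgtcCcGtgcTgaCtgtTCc
Iglc2: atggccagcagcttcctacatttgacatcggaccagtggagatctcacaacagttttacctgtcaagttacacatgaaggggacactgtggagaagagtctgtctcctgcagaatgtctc
Iglc3: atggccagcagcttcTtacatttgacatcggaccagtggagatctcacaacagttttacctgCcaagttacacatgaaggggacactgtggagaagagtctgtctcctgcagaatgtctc
Iglc3 differed from Iglc2 at 2 of the 120 bases and Iglc1 at 38. Over the coding sequence of 314 aligned columns, 303 (96.5%) were the same for Iglc3 and 230 (73.2%) for Iglc1. In these coding bases Iglc3 was thus close to Iglc2, and Iglc1 was further from it. The bases after the stop codon were not compared, and the labels do not give the library chemistry, so where reads fall is not known. The division of counts between Iglc2 and Iglc3 is therefore uncertain, and how well Iglc1 counts are told apart was not tested.

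Kappa was the main light chain, but many B cells held UMIs of both kinds. Cells with at least 3 light chain UMIs were called kappa when Igkc was at least 90% of them, lambda when it was at most 10%, and between otherwise. Among 238 Met-1 cells, 93 were kappa (39.1%, 32.8 to 45.6), 12 lambda (5.04%, 2.63 to 8.64) and 133 between (55.9%, 49.3 to 62.3). Among 30 PyMT cells, 16 were kappa (53.3%), 1 lambda (3.33%) and 13 between (43.3%; 25.5 to 62.6). The median Igkc share per cell was 85% (quartiles 72 and 94.5) in Met-1 and 91.0% (78.1 and 100) in PyMT. At least 3 UMIs of each kind were present in 140 Met-1 cells (58.6%) and 13 PyMT cells (41.9%). Lambda was 21.7% of light chain UMIs in Met-1 B cells and 14.9% in PyMT B cells.

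**Figure D3:**
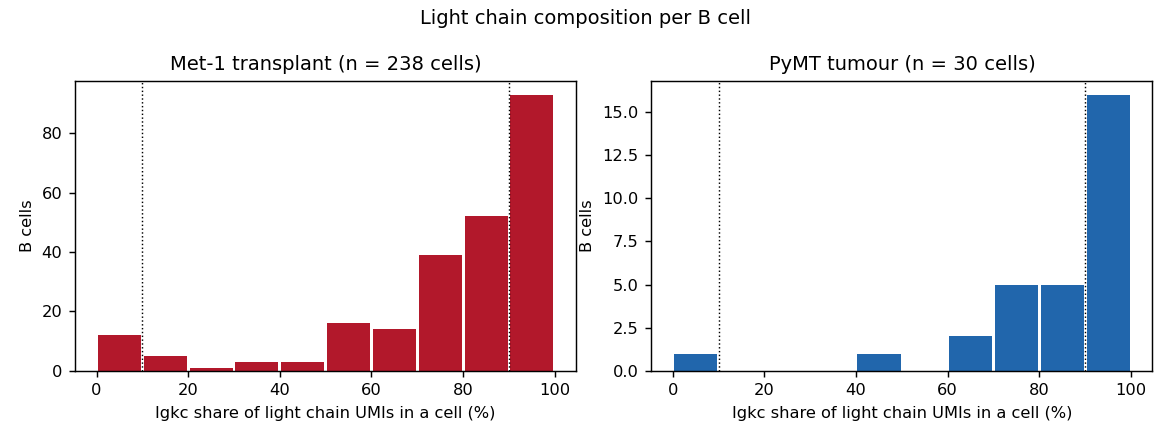
Number of B cells by the Igkc share of light chain UMIs in the cell (%), in the 238 Met-1 and 30 PyMT cells with at least 3 light chain UMIs; dotted lines mark 10% and 90%. Most cells lie between 50% and 100%, and 12 Met-1 cells and 1 PyMT cell lie at or below 10%. The 10% bins from 10% to 50% hold 5, 1, 3 and 3 Met-1 cells and 0, 0, 0 and 1 PyMT cells.

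Lambda UMIs were rare in T cells and macrophages. In the Met-1 library Iglc2 was found in 169 B cells, Iglc3 in 161 and Iglc1 in 70 of 239, against 0, 0 and 4 of 284 T cells and 5, 9 and 6 of 768 macrophages. The T cells and macrophages were deeper than the B cells. Among the 133 cells between the limits, 266 UMIs were Iglc1, 668 Iglc2 and 381 Iglc3, beside 3412 Igkc UMIs. The 12 lambda cells held 1 Igkc UMI in all, and 6 of them had mostly Iglc1 and 6 mostly Iglc2 or Iglc3. Kappa cells had 191 CPM each of Iglc2 and Iglc3 but 29.9 CPM of Iglc1 in Met-1. Whether 2 cells in 1 droplet or reads assigned between homologous genes contribute to the cells between the limits was not tested. Median depth was 3616 UMIs in these cells and 3382 in kappa cells of the Met-1 transplant. Scrublet marked 20 of 2135 kept Met-1 barcodes, 0 of 592 PyMT barcodes and 0 B cells as doublets. It marked only 2 of 107 Met-1 and 0 of 11 PyMT barcodes with macrophage and B cell RNA. Nothing is therefore read from its 0 calls among B cells.

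Cells with both light chains also differed from kappa cells in other genes, a comparison added after the shares were seen. In the Met-1 transplant 6 of 636 genes (0.943%) were at least 2-fold higher in cells with both and 16 (2.52%) at least 2-fold lower. Without 3 B cell barcodes that held RNA of another cell type, described below, 6 of 627 were higher and 3 lower. The 6 were Iglc1, Iglc2 and Iglc3, which divided the cells, the heat shock genes Hspa1a and Hspa1b, whose near-identical copies can share reads, and Ltb, the lymphotoxin beta chain. Hspa1b was at 1163 CPM in cells with both and 329 CPM in kappa cells (ratio 3.54, 2.88 to 4.37), and was found in 46.6% and 16.1% of the cells. Ltb was at 668 and 272 CPM (2.45, 1.94 to 3.12). Cd79b, part of the membership rule, was at 1070 and 523 CPM (2.04, 1.72 to 2.43). Tnfrsf13c, the receptor for the survival factor BAFF, was at 336 and 173 CPM (1.94, 1.43 to 2.65). Ighm, at 2203 and 1720 CPM, and Ighd, at 1146 and 852 CPM, had smaller ratios of 1.28 and 1.34. The genes named here other than the immunoglobulin genes and Cd79b were chosen after their values were seen.

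The PyMT cells gave fewer counts for the same comparison. There 31 of 462 genes (6.71%) were at least 2-fold higher in cells with both light chains and 22 (4.76%) lower. Cd79b was at 1220 CPM in cells with both and 625 CPM in kappa cells (ratio 1.95, 1.11 to 3.51). Ltb was at 626 and 446 CPM, with an interval of the ratio from 0.676 to 2.97. The lowest genes of the Met-1 comparison, Igfbp7, Mgp and Sparc, lay mainly in 1 kappa barcode described below.

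Variable segments were rarely captured. Met-1 B cells held 54 Ighv UMIs in 44 cells over 32 of 185 gene rows and 45 Igkv UMIs in 38 cells over 27 of 160 rows. The most frequent Igkv row was Igkv12-46, with 6 UMIs in 5 cells. PyMT B cells held 0 Ighv, 0 Igkv and 2 Iglv UMIs. Clonal relations cannot be read from so few UMIs.

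Between the tumours, 714 genes were over the level minimum, of which 62 (8.68%) were at least 2-fold higher in Met-1 B cells and 71 (9.94%) at least 2-fold lower. The median log2 ratio over all of them was -0.12, and after subtracting it 72 were higher and 44 lower. In the shallow PyMT sum a gene can pass by few counts, since the higher genes had a median of 7 PyMT UMIs and the lower genes 36. Over the 636 genes with at least 10 UMIs in both libraries, 22 were higher and 70 lower. Of the 7 ribosomal pseudogene or retrogene rows tested, 7 were lower in Met-1 (median log2 ratio -2.84), and 6 of 11 mitochondrial rows were higher. Since the libraries are also the tumours, tumour, library and depth cannot be told apart in any of these differences.

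**Figure D4:**
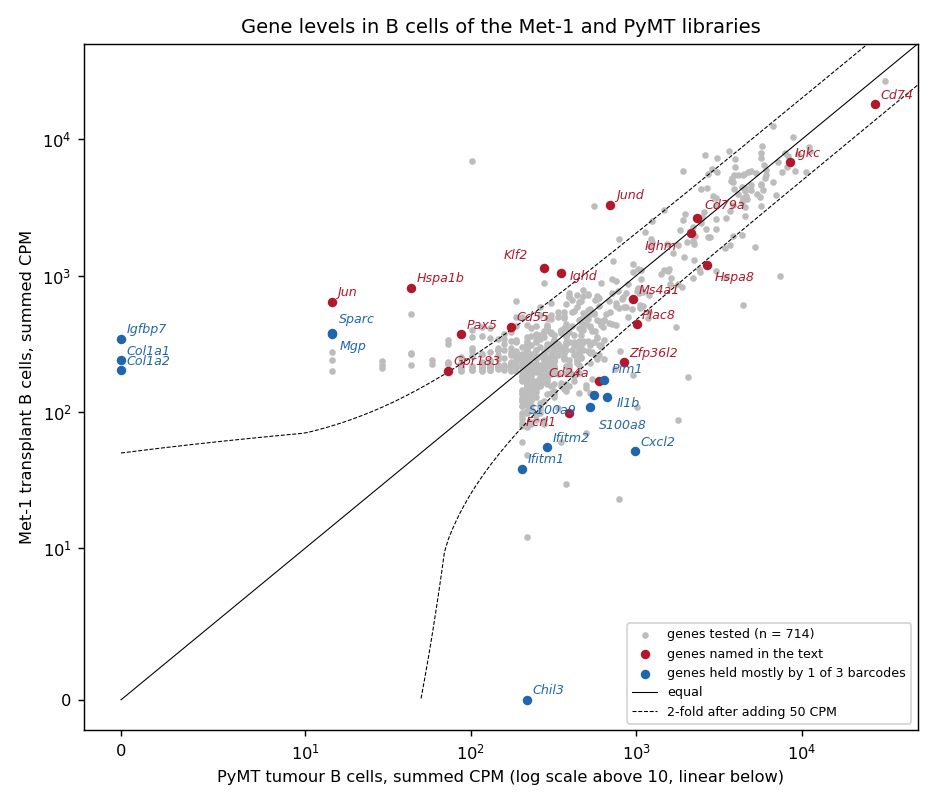
Summed CPM of the 714 genes in Met-1 B cells (vertical) against PyMT B cells (horizontal), both logarithmic above 10 CPM and linear below, with the line of equality and the lines of a 2-fold difference after adding 50 CPM. Ighd, Klf2, Jun, Jund, Hspa1b and Pax5 lie above the upper line and Cd24a, Fcrl1, Plac8 and Zfp36l2 below the lower line; the blue genes were held mostly by 1 of 3 barcodes.

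The genes of B cell identity were mostly within 2-fold. Of 20 listed, 17 were measured, 2 were higher in Met-1 (Ighd and Pax5), 1 was lower (Cd24a), and the median log2 ratio was -0.04. Pax5 was at 371 CPM in Met-1 B cells and 87.3 CPM in PyMT B cells (ratio 4.24, 1.93 to 11.6), with 6 UMIs in PyMT. Cd24a, which encodes the heat stable antigen CD24, was at 169 and 597 CPM (0.284, 0.200 to 0.411), and it was lower in Met-1 also in T cells (log2 ratio -1.75) and macrophages (-2.77). Cd79a at 2658 and 2328 CPM, Cd79b at 863 and 888 CPM and Ms4a1 at 670 and 961 CPM stayed within 2-fold.

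Of the 18 mature follicular genes, 13 were measured, 5 were higher in Met-1 B cells and 0 lower, with a median log2 ratio of 0.47. Over all 714 genes 8.68% were higher. The 5 were Ighd, Klf2, Zfp318, Cd55 and Gpr183. Zfp318, Cd55 and Gpr183 were under 200 CPM in PyMT B cells and met the level minimum only in Met-1. Nothing is read from the count. Klf2, the factor that keeps lymphocytes quiescent and recirculating, was at 1138 CPM in Met-1 B cells against 277 CPM in PyMT B cells (ratio 4.12, 2.62 to 6.86), with a log2 ratio of 0.22 in T cells and 1.58 in macrophages. Zfp318, which promotes IgD expression from the shared Ighm and Ighd transcript, was at 205 and 72.8 CPM (2.81, 1.18 to 8.76). Cd55, a complement regulator, was at 423 and 175 CPM (2.42, 1.37 to 4.73). Gpr183, which guides B cells along oxysterols, was at 200 and 72.8 CPM (2.75, 1.16 to 8.57), and was also higher in T cells (log2 ratio 1.27) and macrophages (1.19) of the Met-1 library.

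The other follicular genes were within 2-fold. The lymph node homing receptor Ccr7 was at 708 CPM in Met-1 B cells and 480 CPM in PyMT B cells, Fcer2a at 418 and 291 CPM, and Fcmr at 726 and 509 CPM. Tnfrsf13c was at 272 and 451 CPM. Cr2 was at 184 and 204 CPM and the chemokine receptor Cxcr4 at 601 and 597 CPM.

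Among B lineage transcription factors, 14 of 30 were measured, with a median log2 ratio of 0.38. In Met-1, 4 were higher (Pax5, Klf2, Zfp318 and Pou2f2) and 0 lower, against 8.68% higher over all 714 genes. Of these 4, Pax5, Zfp318 and Pou2f2 met the level minimum only in Met-1, so nothing is read from the count. Pou2f2, an octamer-binding factor of B cells, was at 297 CPM in Met-1 B cells against 102 CPM in PyMT B cells (ratio 2.91, 1.39 to 7.32). Irf4, a factor of activation and plasma cell fate, was at 120 and 204 CPM. The follicular and transcription factor lists share Klf2 and Zfp318.

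Receptor signalling genes were within 2-fold for 13 of the 15 measured of 30, with a median log2 ratio of -0.12, the same as over all genes. Lyn, the Src-family kinase that both starts and restrains receptor signalling, was at 162 CPM in Met-1 B cells against 378 CPM in PyMT B cells (ratio 0.427). Bcl10, the adaptor that links the receptor to NF-kappa-B, was at 156 and 378 CPM (0.413). Syk, the kinase that binds the Cd79 chains, was at 272 and 189 CPM, and the phosphatase gene Ptprc, which encodes CD45, at 706 and 393 CPM. Fcrl1, a B cell coreceptor outside the list, was at 97.9 and 393 CPM, a log2 ratio of -1.58.

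Marginal zone and plasma cell genes were few among the measured ones. Of 12 marginal zone genes 3 were measured and 1, Plac8, was lower, at 441 CPM in Met-1 B cells against 1004 CPM in PyMT B cells (ratio 0.439, 0.339 to 0.575), while in T cells and macrophages it was higher in Met-1 (log2 ratio 0.60 and 0.80). Of 14 plasma cell genes 3 were measured and 0 passed 2-fold. Mzb1, a chaperone of immunoglobulin secretion, was at 239 and 393 CPM. Of 18 immature and transitional genes 2 were measured, and Cd24a, also an identity gene, was the lower one. Of 17 homing genes 5 were measured and 1, Gpr183, was higher. Of 22 interferon response genes 2 were measured, and Ifi27l2a was higher, at 588 and 262 CPM, but no longer called without the 3 barcodes described below (log2 ratio 0.92).

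RNA of class II presentation genes was high in B cells of both libraries, and also in the other barcodes. The 14 class II genes summed to 34860 CPM in Met-1 B cells and 46672 CPM in PyMT B cells. The other barcodes of these libraries had 23092 and 32851 CPM. Between the B cells of the libraries, 0 of 9 measured genes passed 2-fold (median log2 ratio -0.27). Cd74, the invariant chain, was at 18171 and 27593 CPM (ratio 0.659, 0.628 to 0.691). H2-Ab1 was at 3981 and 5356 CPM (0.743), and H2-Eb1, another class II chain, at 4503 and 4366 CPM. Activation genes had a median log2 ratio of -0.61 over 6 measured of 24, with 0 past 2-fold. Cd83 was at 755 and 1091 CPM, Cd69 at 420 and 291 CPM, and the NF-kappa-B inhibitor gene Nfkbia at 309 and 611 CPM.

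Immediate early and heat shock genes moved both ways. Of 16 measured of 20, 4 were higher in Met-1 B cells and 3 lower. Over all 714 genes 8.68% were higher and 9.94% lower. Jun was at 643 CPM in Met-1 B cells against 14.6 CPM in PyMT B cells, where it had 1 UMI. Jund was at 3312 and 699 CPM (ratio 4.74, 3.57 to 6.44), with a log2 ratio of 0.70 in T cells and 0.68 in macrophages. Hspa1b was at 818 and 43.7 CPM, with 3 UMIs in PyMT, and was also higher in T cells (2.02) and macrophages (1.99) of the Met-1 library. The lower ones were Junb at 1600 and 3435 CPM, Hspa8 at 1205 and 2678 CPM and Dusp1, a phosphatase of MAP kinases, at 147 and 364 CPM. Fosb, the other higher gene, was at 338 and 72.8 CPM. Jun, Hspa1b and Fosb met the level minimum only in Met-1, and Dusp1 only in PyMT. Without 3 barcodes that held RNA of another cell type, described below, 5 of these genes were higher and 1, Hspa8, was lower.

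**Figure D5:**
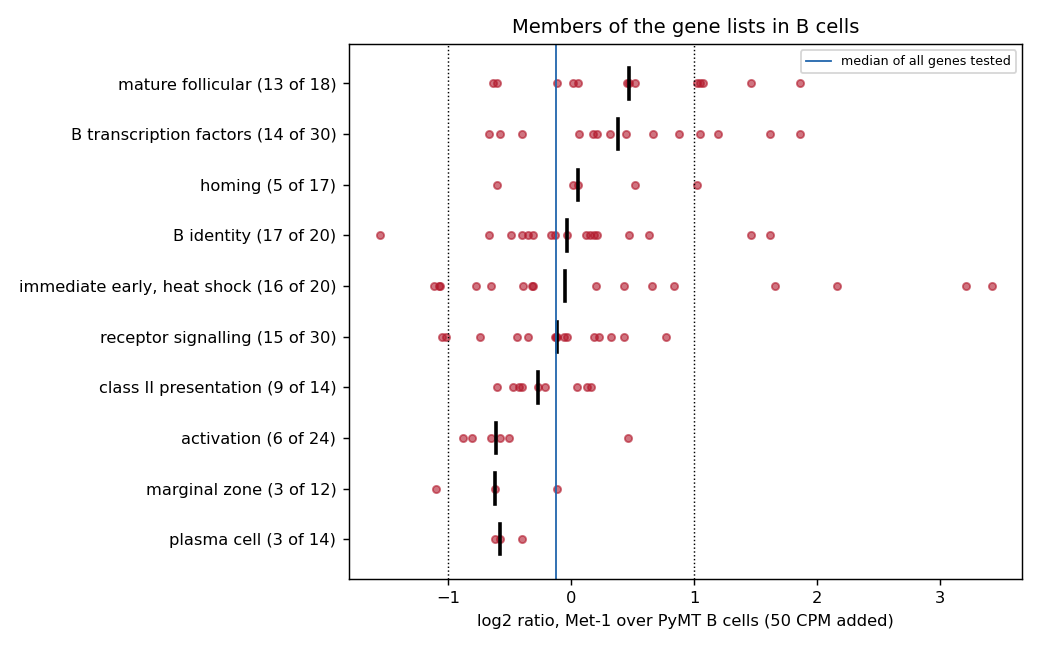
Log2 ratio of (CPM + 50), Met-1 over PyMT B cells, for each measured gene of each list (points), with the list's median (black bar) and the median over all 714 genes. The mature follicular list has a median of 0.47 and the transcription factor list 0.38, against -0.12 over all genes. The interval of the transcription factor median, from the ranks of its genes, is -0.398 to 1.19 and includes the median over all genes. That of the follicular median is -0.119 to 1.08. Both lists hold Klf2 and Zfp318.

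Other genes at the ends of the range encode RNA-binding proteins. Hnrnpa0, an RNA-binding protein, was at 526 CPM in Met-1 B cells against 43.7 CPM in PyMT B cells, and was also higher in Met-1 T cells (log2 ratio 2.69) and macrophages (2.02). Zfp36l2, an RNA decay factor, was at 231 and 844 CPM, with a log2 ratio of -0.83 in T cells and 0.36 in macrophages. Hnrnpa0 was thus apart between the libraries in all 3 classes.

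In all, 3 B cell barcodes held 20 or more UMIs of genes of another cell type, and they carried several of the largest ratios. One Met-1 barcode, with 21974 UMIs, held 654 fibroblast UMIs, among them 290 of Igfbp7, 294 of Sparc, 286 of Mgp and 166 of Col1a1. Another Met-1 barcode held 270 neutrophil UMIs. One PyMT barcode held 73 neutrophil UMIs, with 64 of the 68 Cxcl2 UMIs of PyMT B cells. Without the 3 barcodes the log2 ratio of Igfbp7 was 0.63, against 2.98 with them, and that of Cxcl2 was -0.61, against -3.35. S100a9 was at -0.45 without them and -1.71 with them, and Pim1 at -0.19 and -1.65. Without the 3 barcodes 54 of 682 genes were higher and 57 lower, and 102 calls were shared with the 133 made on all members. Pax5 then had a log2 ratio of 1.76.

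RNA of other cell types was lower in the B cells than in the other barcodes. Over all members the fibroblast list summed to 961 CPM in Met-1 B cells and 43.7 CPM in PyMT B cells, against 11376 and 1132 CPM in the other barcodes, and was found in 133 and 3 B cells. Without the 3 barcodes it summed to 248 CPM in Met-1 B cells against 45.9 CPM in PyMT B cells, and the neutrophil list to 20.4 and 138 CPM. The macrophage list, limited by the rule, summed to 809 and 1252 CPM against 22205 and 23399 CPM. The T cell list summed to 44.0 CPM in Met-1 B cells against 0 CPM in PyMT B cells. Adipocyte markers had 0 UMIs in Met-1 B cells.

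The sort selected for EGFP, and its RNA was present in most B cells of the Met-1 library. EGFP was at 3267 CPM (3150 to 3386) in Met-1 B cells, in 225 of 239 cells (94.1%, or 87.4% after thinning). In PyMT B cells it was at 553 CPM (391 to 759), in 5 of 31 cells (16.1%), and 33 of the 38 UMIs were in the barcode with neutrophil RNA. Without the 3 barcodes EGFP was at 3262 CPM in Met-1 B cells against 76.5 CPM (24.8 to 179) in PyMT B cells. T cells had 2385 CPM in Met-1, with a UMI in 97.5%, and 1283 CPM in PyMT, with a UMI in 45.7%. Macrophages had 4137 and 2266 CPM, with a UMI in 97.3% and 84.7%. PyMT B cells thus held less EGFP RNA than T cells and macrophages of their own library, while Met-1 B cells lay between these classes.

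Clustering of the 270 cells without immunoglobulin genes followed the library. It gave 3 subclusters of 180, 60 and 30 cells. The first held 179 Met-1 cells and 1 PyMT cell, the second 60 Met-1 cells and the third 30 PyMT cells. Their leading genes included Irs2, Vps37b, Jund, S100a6 and Ccr7 in the first, Hspa1b, Iglc1, Ltb, Iglc2 and Rnase6 in the second, and Csn3, Tob1, Zfp36l2 and Fcrl1 in the third. Median depth was 3453, 3634 and 2099 UMIs. None was named as a B cell stage, since each had fewer than 3 markers of any stage list at 2-fold and in 25% of its cells, and the third cannot be told apart from its library. Immunoglobulin genes did not enter the clustering. Cells between the light chain limits were 47 of 60 (78.3%, 65.8 to 87.9) in the second subcluster and 86 of 178 Met-1 cells (48.3%, 40.8 to 55.9) in the first. Lambda cells were 4 and 8 of these, so the second subcluster held mostly cells with both light chains, and many such cells were outside it.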

How the data were processed

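The deposited matrices hold UMI counts (whole numbers for each gene in each barcode) from Cell Ranger 3.1.0 on build mm10, per the submitters' processing notes, which name no annotation release. Gene positions come from the GENCODE M21 annotation matched by gene ID, where 30934 of 31054 rows matched, and windows before gene starts from RefSeq. T cells (284 and 35) and macrophages (768 and 215) were chosen by like rules. Counts of a class were summed per library (20172911 kept UMIs in Met-1, 4309454 in PyMT) and scaled to CPM. Levels have exact Poisson, shares exact Clopper-Pearson and ratios exact conditional binomial 95% intervals, for counting error only. Calls needed a 2-fold difference in CPM + 50 and 200 CPM with 10 UMIs on 1 side. The calling step was tested on simulated counts. The members and lists were chosen with earlier results of these data known.

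Named genes were the immunoglobulin constant genes, the identity list, the 12 highest and 12 lowest between tumours, the 12 highest and 6 lowest against other barcodes, the 2 highest and 2 lowest of each list and the 5 leading genes of each subcluster, leaving out mitochondrial, ribosomal, unnamed and variable segment rows. Fosb, Pou2f2, Zfp318, Cd55, Fcer2a, Dusp1, H2-Ab1, H2-Eb1, Hspa1a, Vpreb3, Cd93, Rag1, Dntt, Cd5, Jchain, Sdc1, Mki67 and Top2a were chosen after their values were seen. Doublet calls did not remove cells. Python 3.11.15, numpy 2.4.6, pandas 2.3.3, scipy 1.17.1 and scanpy 1.11.5 were used. Alternatives changed the limits on mitochondrial share, Cd79, C1q and CD3 UMIs, the level minimum, the added CPM, thinning, the light chain limits and the clustering resolution; leaving out 3 barcodes, comparing with barcodes low in Cd79, and leaving out ribosomal and mitochondrial rows were added after the data were seen. Some genes that this rule selects are not reported here.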

Additional observations from a re-analysis of the deposited data

Results flagged for a closer look

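Igha, the IgA constant gene, was counted in T cells, which enter the report only as a class set beside the B cells. T cells of the Met-1 transplant held 117 Igha UMIs, in 62 of 284 cells (21.8%, or 4.23% after thinning to 1000 UMIs), with at most 5 in a cell, and at a summed level of 46.3 CPM. T cells of the PyMT tumour held 7 Igha UMIs in 4 of 35 cells. B cells held 2 UMIs in Met-1 and 0 in PyMT. Among macrophages, Igha was found in 6 of 768 Met-1 cells (0.781%) and 1 of 215 PyMT cells. It is listed because these UMIs lie in data outside the B cells and exceed the 3 UMIs that a count of 0 allows. The source of these UMIs was not tested.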

How the results depend on the processing

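Against alternatives, 124 values that answer a comparison stayed within the limits set for them and 36 moved; of values of single genes and lists, 1004 stayed, 66 moved and 5 changed sign. With at most 5% mitochondrial UMIs, B cells were 9.15% of Met-1 barcodes. With at least 5 Cd79 UMIs they were 3.55% of PyMT barcodes. With 0 C1q and Csf1r UMIs there were 138 B cells (6.46%) in Met-1 and 19 (3.21%) in PyMT. Between the tumours, 222 genes were higher and 124 lower with no level minimum, and 20 and 38 with 500 CPM; 33 were lower without the top cell of each gene, and 44 after centring on the median. Against other barcodes, no level minimum gave 189 higher and 577 lower in Met-1 and 293 and 699 in PyMT, and 500 CPM gave 41 and 72 in Met-1 and 55 and 89 in PyMT. Requiring 2 UMIs of a heavy chain, both chains were found in 73.6% of Met-1 and 19.4% of PyMT cells, Ighm alone in 21.3% and 67.7%, and a switched gene in 0% of Met-1 cells. Thinned to 1000 UMIs, both chains were in 49.2% and 25.8%, Ighm alone in 29.8% of Met-1 cells and a switched gene in 0%. Thinned to 500 UMIs, both were in 26.8% and 9.68%, and Ighm alone in 37.7% of Met-1 cells. With 10 light chain UMIs required, lambda cells were 0% in PyMT. With light chain limits of 95% and 5%, kappa cells were 23.5% and cells between 71.4% of Met-1 cells. At resolution 1.0 there were 8 subclusters. The log2 ratio turned positive without the top cell for Ifitm1 (0.15), Ifitm2 (0.13) and Il1b (0.38), and without the 3 barcodes for Ifitm1 (0.032) and Il1b (0.37). Beyond the construction of each alternative, the causes were not tested. No paired analysis was possible because each group has 1 library. The 31 PyMT cells limit every statement on that tumour: a count of 0 there allows a level of up to 43.7 CPM, and levels below this rest on fewer than 3 UMIs.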
